A study of Mus musculus with 4 samples.

Results

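The Ly6 surface antigen family was examined in 32D-EpoR cells, a mouse line, with and without erythropoietin (Epo). The genes are Ly6k, Ly6a, Ly6c1, Ly6c2, Ly6d, Ly6e and Ly6g6c. Every non-control spot whose gene name on the array equalled one of these 7 names was taken, with the scanner's flag for a signal well above background on each array. The names were chosen with measured results of the same Epo comparison in view, among them the low Ly6k signal with Epo, so the Epo differences of these genes are given as a description and carry no test. Of the 7 genes, 6 had a spot under their own name, on 7 probes, out of 36315 gene names and 55681 probes on the array. No spot was named Ly6c2.

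32D cells are a bone marrow-derived myeloid progenitor line that depends on interleukin-3, for which WEHI-conditioned medium is a usual source, and the label EpoR stands for the Epo receptor. In the Epo group, cells had been moved out of WEHI medium into RPMI with 10% FBS and then received 10 U/ml Epo. In the no Epo group the same washed 32D-EpoR cells in 10% FBS received no Epo, so both groups lacked WEHI medium and differed in Epo. No array held cells kept in WEHI medium. A rise or fall below therefore means Epo relative to no Epo, and which group had changed cannot be told. The labels give neither the length of the Epo treatment nor whether the line is a single clone. Each group had 2 single-colour Agilent arrays, which the design describes as independent experiments on different passages of 1 line.

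Ly6 proteins are small cell surface proteins with a compact domain held by disulfide bonds between cysteines, and most are tied to the outer membrane by a glycosylphosphatidylinositol (GPI) lipid anchor. In mouse blood cells several of them serve as markers: Ly6a is the stem cell antigen Sca-1, the Ly6c proteins mark monocytes and some lymphocytes, and Ly6d marks lymphoid progenitors committed to the B lineage. Most of the genes lie in a cluster on chromosome 15, and a smaller group lies in the major histocompatibility region on chromosome 17.

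The probes decide which transcripts the values speak for, so their letters are shown first, from the array's annotation, 5′ to 3′ along the transcript. The Ly6k and shared Ly6c1 probes are given whole, at 60 bases, because the main difference and the missing Ly6c2 rest on them, and the others by a 30-base piece. Capitals mark the polyadenylation signal AATAAA, which was searched on the transcript strand.
Ly6k: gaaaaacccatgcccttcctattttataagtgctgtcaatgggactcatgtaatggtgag
Ly6c1, probe shared with Ly6c2: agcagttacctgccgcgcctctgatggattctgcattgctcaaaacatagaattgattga
Ly6c1, own probe, first bases: tattatagtatcaccatccacacataagta
Ly6a, first bases: tatgagttatagaagctccaaggtgggagt
Ly6e, first bases: tatcattgtacccaccttgtactctgttca
Ly6g6c, last bases: tatcttgagaAATAAAcatcagtgtctaat
By the mm9 coordinates in the array files, these probes lie on the minus strand at chr15:74627529-74627588 for Ly6k, chr15:74877785-74877844 for the shared Ly6c1 probe, chr15:74875495-74875554 for the Ly6c1 probe of its own and chr15:74825553-74825612 for Ly6a. The Ly6e probe lies on the plus strand at chr15:74789592-74789651 and the Ly6g6c probe on the plus strand at chr17:35206934-35206993. The Ly6d probe lies at chr15:74592551-74592610 on the minus strand. Exon and untranslated region status was not analysed here. The shared Ly6c1 probe carries accessions of both Ly6c1 and Ly6c2, so its signal cannot be assigned to either gene, while the other Ly6c1 probe, 2290 bases away, carries accessions of Ly6c1 alone. The signal AATAAA starts at base 41 of the Ly6g6c probe and is found in none of the other Ly6 probes. It is present in 10.06% of the 55681 probes.

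Signals are given in the scanner's intensity units after each array was divided by its own 75th percentile and set back to a common level. That percentile was 347 and 454 in the Epo arrays and 224 and 250 in the no Epo arrays. With Epo, 42.7% and 47.9% of probes were well above background, against 41.5% and 41.3% without Epo, and no spot was saturated. Arrays correlated at 0.995 within the Epo group, 0.992 within the no Epo group and 0.969 to 0.974 between the groups. The filter on dim probes asked that the Epo pair or the no Epo pair of arrays both carry the flag, and 23734 probes for 17554 genes passed it. The number of arrays limits the precision. Each SE below is moderated by limma, which draws a probe's variance toward that of the other kept probes. An SE is therefore not the spread of that probe's own arrays alone, and no error reaches beyond these 4 arrays of 1 line.

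**Figure D1:**
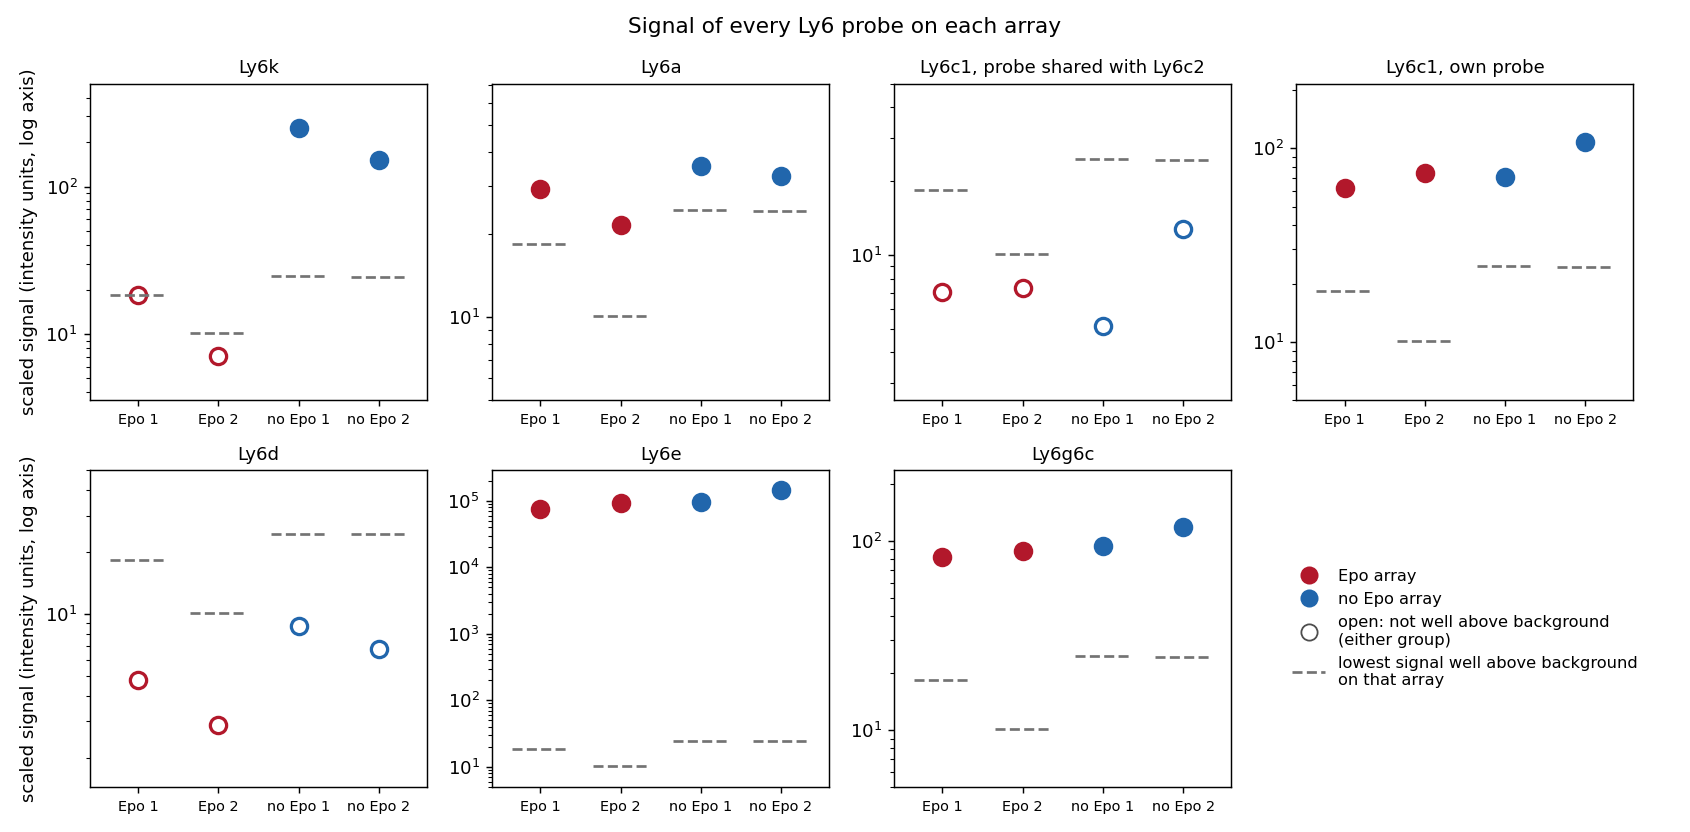
Scaled signal on each array (log axis, intensity units) for the 7 Ly6 probes, with Epo arrays in red and no Epo arrays in blue. Dashes give the lowest signal well above background on each array and open circles lie in a group whose arrays are not well above background. Ly6k is at 18.3 and 7.10 on the Epo arrays, at or under the dash, and at 249.9 and 150.5 on the no Epo arrays.

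Ly6k, in mouse a testis protein with a part in sperm function, was present without Epo and under the detection limit with Epo. Its scaled signal was 18.3 and 7.10 in the Epo arrays, against 249.9 and 150.5 in the no Epo arrays. Neither Epo array was well above background and both no Epo arrays were, and the groups lay far apart. The measured difference was -4.09 (moderated SE 0.52, n = 2 per group) on the log2 scale. The SD was 0.96 between the Epo arrays and 0.52 between the no Epo arrays. Since the Epo values are bounds, the signal was at least 14.2-fold lower with Epo, from the mean of the no Epo arrays against, on each Epo array, the higher of the probe's own signal and the lowest signal well above background. The raw Ly6k signal of Epo replicate 1, 20.7, stood just under the lowest raw signal well above background on that array, 20.8, and Epo replicate 2 stood at 70.2% of its array's lowest such signal. Without any scaling the bound was at least 8.47-fold lower with Epo. In whole-culture RNA, fewer cells carrying Ly6k and less Ly6k RNA per cell cannot be told apart.

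Ly6k was the 1 Ly6 probe of 5 kept that passed the limma threshold of an adjusted p of 0.05. Over all kept probes 25.9% passed it and 12.9% passed it in the lower direction, and as the genes were chosen with this comparison known, nothing is read from that count. Both Epo arrays were below both no Epo arrays for 4 of the 5 kept Ly6 probes, Ly6k, Ly6a, Ly6e and Ly6g6c, as they were for 36.7% of all kept probes. No other 60-base probe on the array matched a Ly6 probe at 45 or more of 60 bases, counting ungapped overlaps of 40 or more. Transcripts were not searched, so whether a Ly6 probe also picks up RNA of a related gene was not tested.

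Ly6a, the Sca-1 antigen of blood stem and progenitor cells, was detected on every array, close to the detection limit. Its scaled signal was 29.3 and 21.6 with Epo and 35.3 and 32.7 without Epo. The groups did not overlap, but the difference was small, -0.43 (SE 0.19) on the log2 scale, with group means of 4.65 ± 0.31 with Epo and 5.09 ± 0.08 without Epo (SD, n = 2 each). It did not pass the threshold as reported. With normexp background correction it crossed it (-0.51; limma adjusted p = 0.0421), which is a description and no test. The Epo replicate 2 raw signal, 32.1, and the Epo replicate 1 raw signal, 33.2, were above the no Epo raw signals of 25.8 and 26.7, so the direction turns to 0.31 without scaling.

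Ly6c1 and Ly6c2 encode the near-identical proteins that the Ly6C antibody recognises on monocytes. The Ly6c1 probe of its own had a scaled signal of 62.6 and 74.5 with Epo and 70.9 and 107.8 without Epo. The higher Epo array exceeded the lower no Epo array, so the groups overlapped, and the difference of -0.36 (SE 0.24) did not pass the threshold and turned to 0.39 without scaling. The probe shared with Ly6c2 read 7.03 and 7.33 with Epo and 5.11 and 12.7 without Epo, and was not well above background on any of the 4 arrays. A level of Ly6c2 could therefore not be given apart from this shared probe, which gave only a bound on every array. The shared probe also carries accessions of Ly6c1, while the Ly6c1 probe of its own was well above background on all 4 arrays. The Ly6c1 probes thus differed on whether Ly6c1 was detected, and the reason was not tested.

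Ly6d, the marker of B-committed lymphoid progenitors, was not well above background on any array. Its scaled signal was 4.78 and 2.88 with Epo and 8.75 and 6.79 without Epo, each under the lowest signal well above background on its array. No fold is given for it, because both groups are below background.

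Ly6e, the thymic shared antigen also known as Sca-2, which in mouse limits the entry of some enveloped viruses, gave signals near the bright end of the array. They were 74099 and 93825 with Epo and 94468 and 143048 without Epo. The no Epo replicate 1 array was barely above the Epo replicate 2 array, so the groups were separated by less than the spread within either of them. The difference of -0.48 (SE 0.25), 1.39-fold lower with Epo, did not pass the threshold, and it turned to 0.27 without scaling. Among the 750 kept probes with a mean above 16 on the log2 scale, the median difference was also below zero at -0.32, with 3 probes called higher and 91 lower with Epo. Of those 750 probes, 109 had a lower difference than Ly6e. The part of this brightness in the Ly6e difference was not tested.

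Ly6g6c, a Ly6 gene of the histocompatibility region on chromosome 17, read 82.3 and 88.7 with Epo and 93.8 and 117.8 without Epo. The groups did not overlap. The difference of -0.30 (SE 0.16) did not pass the threshold and turned to 0.45 without scaling. The 4 kept Ly6 probes other than Ly6k thus spanned -0.48 to -0.30, against a median of -0.04 over all kept probes. With raw signals they spanned 0.27 to 0.45, against a median of 0.71. With quantile normalization they shrank to between -0.23 and -0.17, against a median of -0.01. The part of signal level in these differences was not tested. With 1 array left out, Ly6a ran from -0.65 to -0.21, Ly6c1 from -0.66 to -0.05, Ly6e from -0.78 to -0.18 and Ly6g6c from -0.46 to -0.14.

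**Figure D2:**
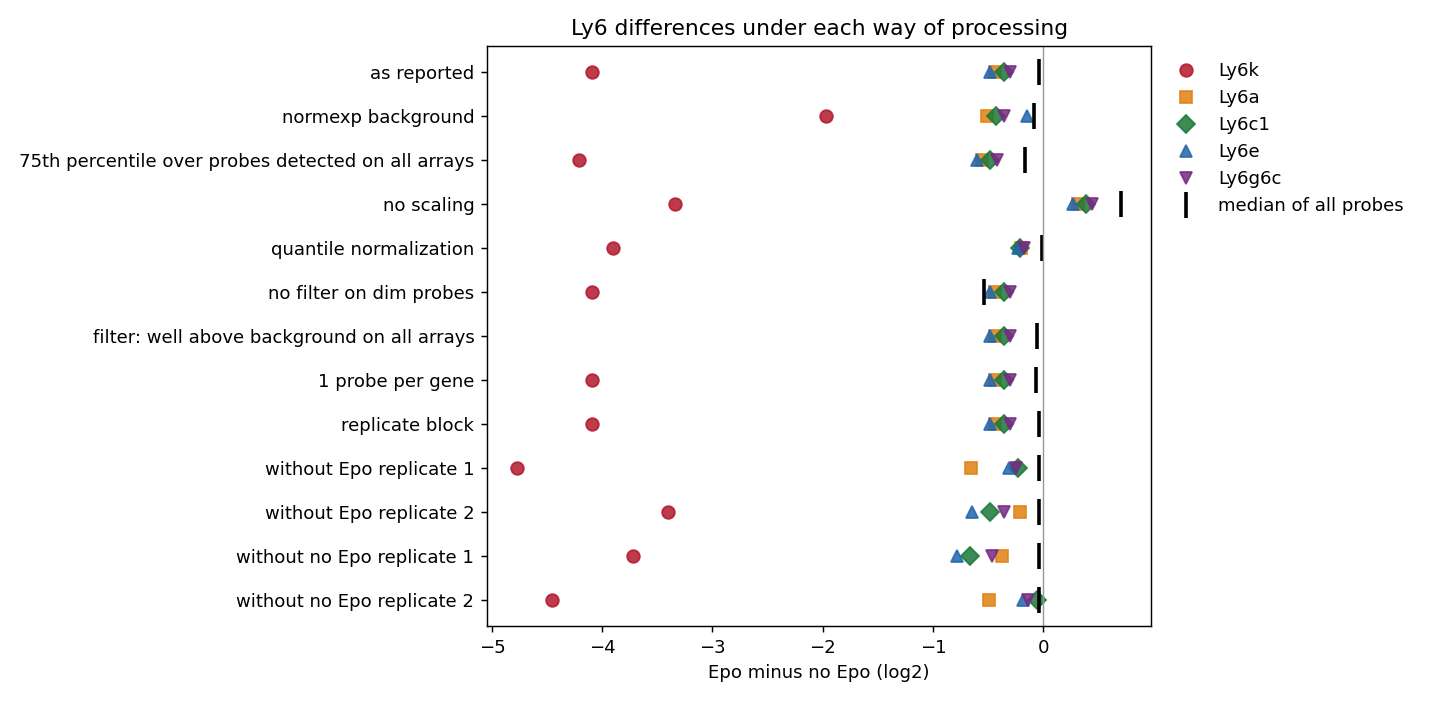
Epo minus no Epo difference (log2) of the 5 kept Ly6 genes under each way of processing, with the median of all probes as a black bar. Ly6k lies between -4.77 and -1.97 in the rows that hold it, sizes that are not exact because its Epo signals were not well above background. It has no value under the filter for probes well above background on all arrays. Ly6a, Ly6c1, Ly6e and Ly6g6c lie at 0.27 to 0.45 with no scaling and below zero in the other rows.

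Spread between replicates differed among the genes. In replicate 2 minus replicate 1, the scaled log2 signal of Ly6e differed by 0.34 between the Epo arrays and by 0.60 between the no Epo arrays. For Ly6c1 the same differences were 0.25 and 0.60, and for Ly6g6c they were 0.11 and 0.33. Ly6a went the other way, at -0.44 between the Epo arrays and -0.11 between the no Epo arrays. For Ly6k the difference was -1.36 between Epo arrays that were both below background and -0.73 between the no Epo arrays. The Epo differences of Ly6a, Ly6c1, Ly6e and Ly6g6c are thus of the size of these replicate differences, and that of Ly6k is larger than them.

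By the root mean square distance of the 4 array values, each centred on its own mean, Ly6a was most like Sart1 (0.022 on the log2 scale), a transcript with no gene name, and Plekhm2. Ly6e was most like Spi1 (0.021), Dennd1c and another transcript with no gene name, Ly6c1 most like A530030E21Rik (0.020), Fbf1 and Rpl31-ps10, and Ly6g6c most like Gm7606 (0.0055), Stradb and Gm3548. These are descriptions over 4 arrays, chosen from 23734 probes.

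Other genes of the Ly6/uPAR family were few among the detected ones. Of 38 listed relatives, 35 had a probe under their current name, 7 passed the filter, and 24 were well above background on no array. Over all gene names with a usable probe, 17554 of 36310 passed the filter. Plaur, the receptor of the urokinase protease, was the 1 called gene, with 4817 and 4413 with Epo and 2280 and 1714 without Epo. It rose by 1.22 (SE 0.18; limma adjusted p = 0.0154), 2.33-fold, with both Epo arrays above both no Epo arrays, and lost the call without Epo replicate 1 (1.16; adjusted p = 0.0540). None was called lower, and over all genes 12.5% were called higher and 13.4% lower.

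The other detected relatives did not pass the threshold. Gml2, which the array names Hemt1 and which lies near Ly6k, read 37.9 and 29.4 with Epo against 85.6 and 48.8 without Epo, without overlap, with a difference of -0.95 (SE 0.32; limma adjusted p = 0.0901), which was called without no Epo replicate 2 (-1.36; adjusted p = 0.0257) and with normexp (-0.72; adjusted p = 0.0285). It shrank to -0.55 without no Epo replicate 1 and to -0.21 without scaling. Slurp2, a secreted Ly6-type protein, read 57.7 and 89.3 with Epo and 82.8 and 142.0 without Epo, and its groups overlapped, with a difference of -0.59 that turned to 0.15 without scaling. With 1 array left out it ran from -0.98 to -0.21. Gpihbp1, which carries lipoprotein lipase across capillary walls, differed by -0.10, Ly6g5b by -0.10, Lypd2 by -0.13 and Lypd5 by -0.08, and each of the 4 turned positive without scaling and with quantile normalization. The median over the 7 detected relatives was -0.10, beside -0.06 over all genes.

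**Figure D3:**
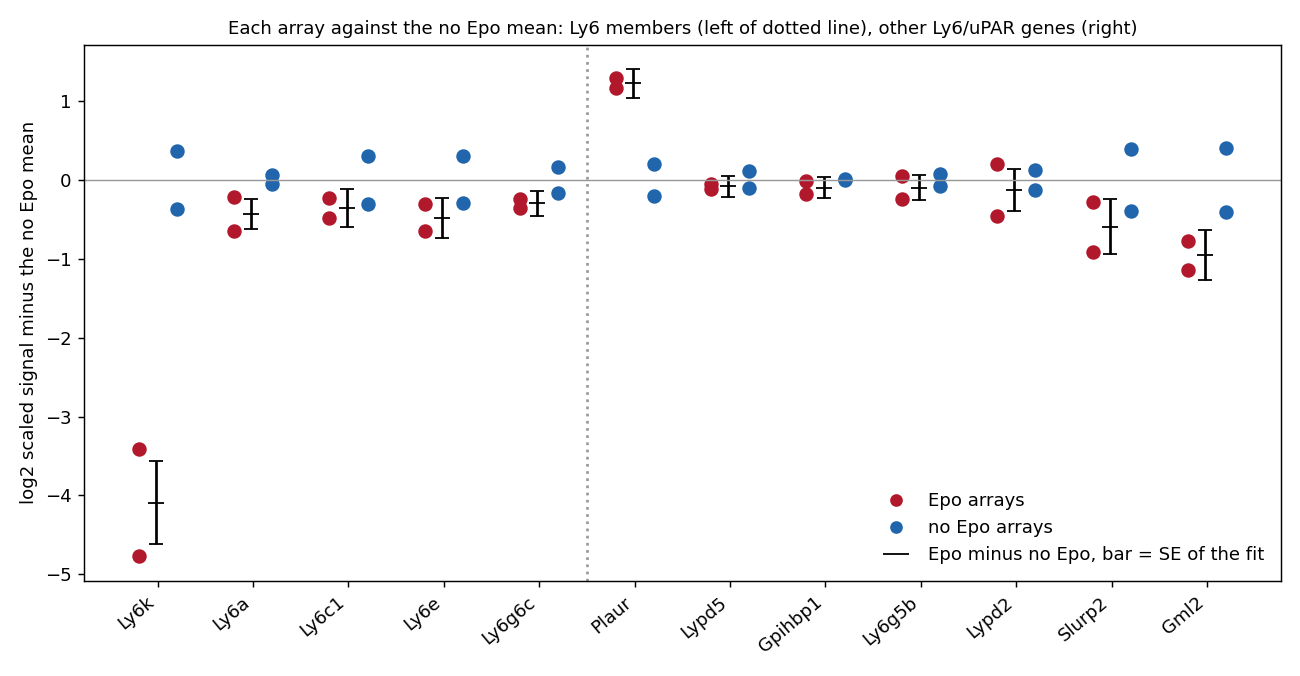
Log2 scaled signal of each array minus the mean of the no Epo arrays, for the kept Ly6 genes on the left and the other detected Ly6/uPAR genes on the right, with Epo arrays in red left of the no Epo arrays in blue and black bars for the difference and its SE. Ly6k lies at -4.09 and Plaur at 1.22, while the rest lie between -0.95 and -0.08. Without scaling the values of Ly6a, Ly6c1, Ly6e, Ly6g6c, Lypd5, Gpihbp1, Ly6g5b, Lypd2 and Slurp2 turn positive.

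A part of the chromosome 15 cluster was read, from the Ly6k probe to the Ly6h probe, 768 kb away. This stretch held 31 probes with 26 names. Of these, 22 probes were well above background on no array and 6 passed the filter, for Ly6k, Gml2, Ly6e, Ly6a, Ly6c1 and Gm3124. Gm3124, the 1 of them outside the family, read 28504 and 18285 with Epo and 36192 and 24942 without Epo, with overlapping groups and a difference of -0.40 (SE 0.30) that did not pass the threshold. Within this stretch Gml2, Ly6e, Ly6a, Ly6c1 and Gm3124 thus lay between -0.95 and -0.36, beside -4.09 for Ly6k. Other probes on chromosome 15 lie outside it. They include that of Ly6d, which was not detected, and those of Lypd2 (-0.13), Slurp2 (-0.59) and Gpihbp1 (-0.10).

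**Figure D4:**
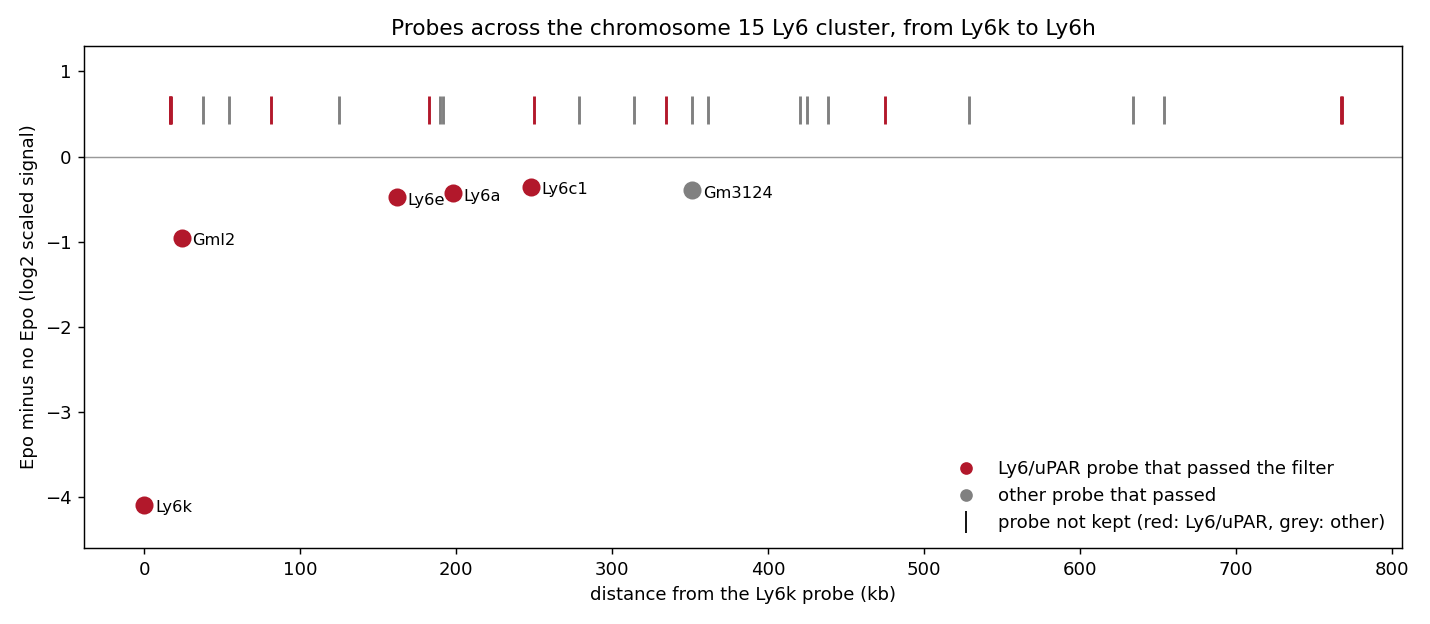
Probes from Ly6k to Ly6h, a part of the Ly6 cluster on chromosome 15, by distance from the Ly6k probe (kb) and Epo minus no Epo difference (log2 scaled signal). Circles are the 6 probes that passed the filter, red for Ly6/uPAR genes, and ticks above the zero line are the probes not kept. Ly6k lies at -4.09 and the other 5 circles between -0.95 and -0.36.

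GPI-anchored Ly6 proteins need the enzymes that build the anchor and attach it. All 29 genes listed for this pathway were on the array and 26 passed the filter, of which 2 were called higher and 1 lower with Epo. Pigm, a mannosyltransferase of the anchor, rose to 659.9 and 622.5 with Epo, against 351.4 and 331.6 without Epo, a difference of 0.91 (SE 0.12; limma adjusted p = 0.0123). Piga, the catalytic subunit of the enzyme that starts the anchor, read 9123 and 8157 with Epo and 5027 and 4379 without Epo, and rose by 0.88 (SE 0.14; limma adjusted p = 0.0181). Pigv, another mannosyltransferase, fell to 922.4 and 771.7 with Epo, against 1738 and 1558 without Epo, a difference of -0.96 (SE 0.15; limma adjusted p = 0.0170). Pigq, named by its signal alone and part of the enzyme that holds Piga, differed by -0.10 and did not pass the threshold. Without Epo replicate 1 the list held 1 called gene and without Epo replicate 2 it held 0. Pigm was lost without either of these (adjusted p = 0.0652 and 0.0508), Piga without either of them or no Epo replicate 2 (0.0862, 0.0552 and 0.0536), and Pigv without Epo replicate 2 (0.0708) and without scaling (-0.22). The median over the 26 genes was -0.04, and the called shares of all genes are those given with Plaur.

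Ly6a, Ly6e and the Ly6c genes are known in mouse as genes induced by interferon, so a list of 30 interferon-stimulated genes was read beside them. Of these, 27 passed the filter, 4 were called higher and 7 lower with Epo, beside 12.5% called higher and 13.4% called lower over all genes, and the median was -0.11. Ifit1, which binds viral RNA, read 9.62 and 16.4 with Epo, with 1 of the 2 Epo arrays well above background, against 59.1 and 98.2 without Epo, and fell by 2.60 (limma adjusted p = 0.0141). The Epo replicate 1 value lay under the lowest signal well above background on that array, 18.4, so the size is not exact, and without that array the difference was -2.22. Rsad2, the antiviral enzyme viperin, read 28.5 and 30.1 with Epo and 168.2 and 150.2 without Epo, and fell by 2.44 (limma adjusted p = 0.00451). Ifit2 read 43.6 and 44.3 with Epo and 161.4 and 99.3 without Epo, and fell by 1.53, and Oasl2 fell by 0.99. For Ifit1, Rsad2, Ifit2 and Oasl2 the Epo arrays were below the no Epo arrays. Without Epo replicate 1, Ifit2 (adjusted p = 0.0524) and Oasl2 (0.0841) lost their calls, as Oasl2 did without no Epo replicate 1 (0.0543) and without scaling (-0.24). The list held 5 called genes without either Epo array and 7 without no Epo replicate 1.

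Ifi35, a protein induced by interferon, was among the higher ones. It read 7164 and 7513 with Epo and 2780 and 2941 without Epo, and rose by 1.36 (limma adjusted p = 0.00673). Irf9, which joins STAT proteins on interferon target genes, read 1269 and 1372 with Epo and 659.6 and 676.5 without Epo, and rose by 0.98 (limma adjusted p = 0.0107). Irf9 lost its call without Epo replicate 2 (adjusted p = 0.0529). Usp18, which removes Isg15 from proteins, rose by 0.50 (limma adjusted p = 0.0490), a call that ended with 4 of the processing alternatives and with each of the 4 arrays left out (adjusted p from 0.0961 to 0.227). Ifitm3, named by its signal alone, differed by 0.29 and did not pass the threshold. The list therefore held called genes in both directions, while Ly6a, Ly6e and Ly6c1, processed as reported, passed in neither.

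**Figure D5:**
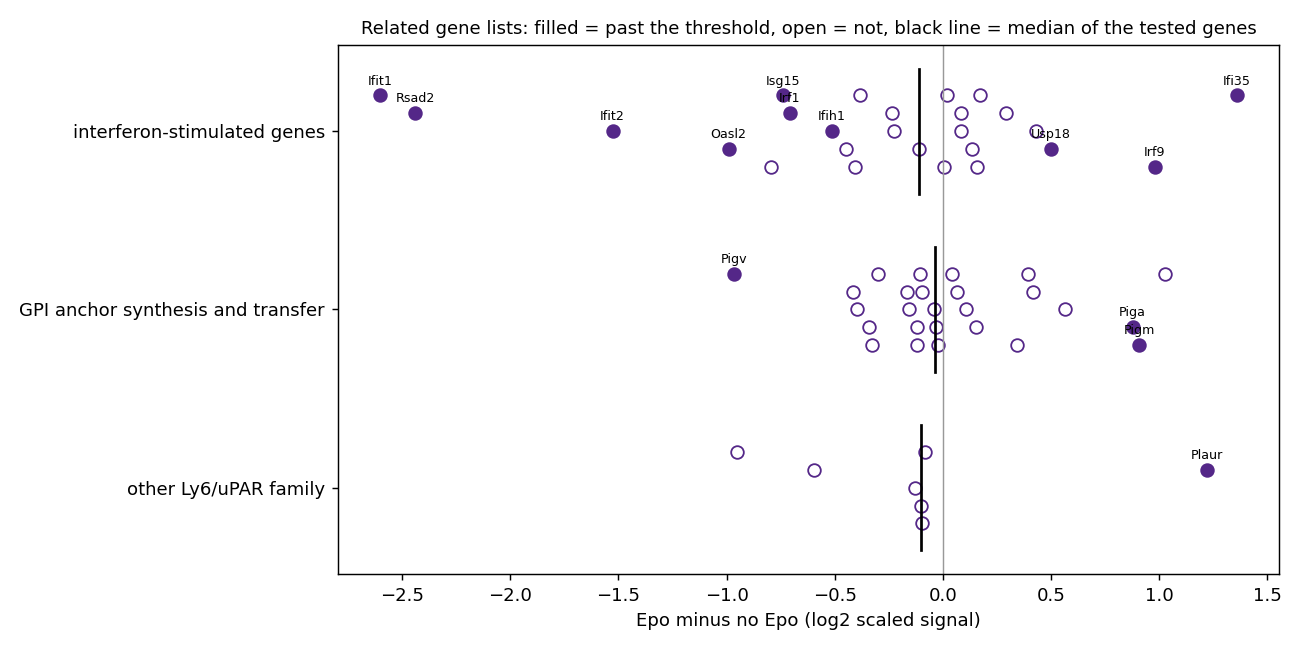
Epo minus no Epo difference (log2 scaled signal) of the detected genes in the interferon, GPI anchor and other Ly6/uPAR lists, filled where the gene passed the threshold, with the median of each list as a black line. 1 gene of the interferon list is not drawn but counts in the median. Called interferon-stimulated genes lie on both sides of zero, from -2.60 to 1.36, and the medians lie at -0.11, -0.04 and -0.10.

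Several Ly6 antigens mark blood cell types, so the markers of those types were read as well, against the 12.5% of all genes called higher and the 13.4% called lower. Of 10 myeloid progenitor markers 9 were kept, with Ctsg, Csf2rb and Il3ra detected and Kit not, and 1, Cebpa, was called lower with Epo. Of the other lists, 5 of 7 mature granulocyte markers on the array were kept with none called, and 3 of 8 monocyte and macrophage markers were kept, with Adgre1 called higher and Csf1r lower, while C1qa, C1qb, Ccr2 and Mrc1 were among those not kept. Erythroid markers kept 4 of 7, with Gata1 called lower and Hbb-b1 and Slc4a1 among those not kept, and mast cell markers kept 3 of 6, with Hdc called lower. For T and NK cells 4 of 7 were kept, and 3 of them, Cd3e, Cd4 and Lck, were called lower, with a summed scaled signal of 961.7 and 1004 with Epo and 1836 and 1643 without Epo. Of 6 B cell markers only Cd79b was kept, and it was called lower, at 607.6 and 694.7 with Epo and 977.7 and 1255 without Epo. Of 8 stromal and endothelial markers Kdr and Cdh5 were kept and both were called lower, with sums of 1483 and 1380 with Epo and 3598 and 3157 without Epo. The part of these markers in the Ly6 differences was not tested.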

How the data were processed

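Cy3-labelled RNA was made from 200 ng of total RNA of 32D-EpoR cells, per the labels' protocols. The deposited files hold scanner output, made with Feature Extraction 10.1.1.1 (build mm9, per the file headers), with all arrays on 1 slide and in 1 scan. The processed signal is an intensity that the scanner software had already background-corrected, per the file headers, and the mean and background intensities in the deposited files served the normexp alternative (offset 50). The submitters' processing notes name limma.

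Here, outlier spots were left out, spots of a probe were averaged, log2 signals were set to each array's 75th percentile, and the kept probes were fitted in limma 3.58.1 (R 4.3.3, two-sided), with Benjamini-Hochberg adjustment over 23734 probes and a threshold of 0.05. The script was tested on simulated data. Gene lists used, for each gene, the kept probe of the highest mean level. Symbols were updated through RefSeq tables (26413 probes matched by accession, 3859 by symbol, 735 by synonym, and 24674 kept the file's name). The rule named all Ly6 probes; of each list, called genes (up to 4 each way) and the gene with the highest signal; all detected Ly6/uPAR relatives and cluster genes; up to 3 markers a list; and the 3 most alike genes per Ly6 probe. Members and lists were chosen with earlier results of these data known. Alternatives varied background correction, scaling, filter, probe choice, a replicate block and each left-out array. Values of a few listed genes are not reported here.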

Additional observations from a re-analysis of the deposited data

How the results depend on the processing

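Ly6k kept its direction in 11 of 11 alternatives, between -4.77 and -1.97. The value nearest zero came with normexp background correction, whose offset of 50 raises dim signals. Ly6k entered the fit through the no Epo group alone and was chosen with this comparison known. Neither its direction nor its threshold calls are therefore evidence of stability. Its Epo signals were not well above background, so these sizes are not exact. Without the filter on dim probes its adjusted p was 0.144, and limma called 0 of 55672 probes and 0 genes in each list. Without scaling, which put the median of all probes at 0.71, differences turned positive for Ly6a (0.31), Ly6c1 (0.39), Ly6e (0.27), Ly6g6c (0.45), Gpihbp1 (0.65), Ly6g5b (0.65), Lypd2 (0.62), Lypd5 (0.66), Slurp2 (0.15) and Pigq (0.65). With quantile normalization this held for Gpihbp1 (0.13), Ly6g5b (0.10), Lypd2 (0.079) and Lypd5 (0.14), and with normexp for Pigq (0.045). With 1 array left out, Ly6g5b ranged from -0.25 to 0.046, Lypd2 from -0.46 to 0.20 and Lypd5 from -0.19 to 0.026. The probe counts of 6144 called, 3085 higher and 3059 lower (50.2% higher) became 11805, 11328 and 477 (96.0% higher) without scaling, 2505 higher and 4317 lower (36.7% higher) with the percentile taken over probes detected on all arrays, and 4849 lower with normexp. With 1 array left out they ran from 2455 to 4992 called, 1250 to 2678 higher and 1205 to 2314 lower. Called genes in the GPI anchor list, 3 as reported, became 5 with normexp, 11 without scaling and 0 to 4 with 1 array left out. Those of the interferon list, 11 as reported, ran from 5 to 8 with 1 array left out. Those of the other Ly6/uPAR list, 1 as reported, became 4 with normexp and ran from 0 to 2 with 1 array left out. Except where a construction is named, the cause was not tested.

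Replicate numbers are shared between the groups, but no label says that a number marks a shared passage, and deviations of same-numbered arrays correlated at 0.378 across probes with only 2 pairs. With the replicate number as a block, 9588 probes were called, 4711 higher and 4877 lower, with 5 called in the GPI anchor list and 3 in the other Ly6/uPAR list, where Gml2 (adjusted p = 0.0293) and Slurp2 (0.0258) joined Plaur. The block leaves each difference as it was. Ly6e crossed the threshold with it (adjusted p = 0.0498), which, as for every Ly6 gene chosen here, is a description and no test. The signals of Ly6a near background, and of Ly6d and the shared Ly6c1 probe below it, limit what these arrays can show of them.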

Other observations

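Ly6g, the granulocyte antigen of the family, has no probe under that name. A probe that the array annotation describes as the lymphocyte antigen 6 complex, locus G gene, picked after its values were seen, was well above background on 1 of the 4 arrays. Its raw signal was 28.1 and 6.19 with Epo and 5.04 and 8.06 without Epo, with the high value on Epo replicate 1.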
